A study of Macaca mulatta with 102 samples.

Results

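The genes described here are 8 regulators of apoptosis, measured in T cells sorted from the blood of rhesus macaques: BCL2, BCL2L1, BCL2A1, BAX, CFLAR, CASP8, TNFSF10 and FASLG. They are 8 of the 14133 genes that have a probe set of their own on the array. Their probe sets were chosen by the platform annotation: a probe set was taken if that annotation pairs it with a single one of these genes. This gave 20 of the 52865 probe sets in the value table: 1 each for BCL2, BCL2A1 and FASLG, 2 for CASP8, 3 for BAX, and 4 each for BCL2L1, CFLAR and TNFSF10. Of these, 19 passed the filter on low values, and the probe set that did not, of TNFSF10, was below the median of all values in every array.

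Apoptosis is run by a mitochondrial route and a death receptor route. In the mitochondrial route the guardians BCL2, BCL-xL (the product of BCL2L1) and A1 (BCL2A1) hold back the pore formers BAX and BAK, and BH3-only proteins such as BIM release them. In the death receptor route, Fas ligand (FASLG) and TRAIL (TNFSF10) engage receptors that activate caspase-8 (CASP8), which c-FLIP (CFLAR) restrains. Both routes set T cell numbers: BCL2 is sustained by survival cytokines such as IL-7 in resting T cells, and Fas ligand is made by activated effector cells, which it can kill or use to kill.

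Animals had received a transplant of hematopoietic cells, either from a donor or their own. The labels name 15 groups after transplant besides untransplanted healthy controls (Healthy.Control, 46 arrays from 45 animals). Autologous recipients gave Auto.D14 (n = 3, day 14), Auto.D36 (n = 4, days 30 to 36) and Auto.D100 (n = 4, day 100). Allogeneic recipients without prophylaxis against graft-versus-host disease gave NoRx.F (n = 4, days 6 to 12), and those given sirolimus, an mTOR inhibitor, gave Siro.F (n = 4, days 12 to 24). A calcineurin inhibitor with an antifolate, tacrolimus plus methotrexate, was the regimen of Tac.Mtx.D14 (n = 3, day 14) and Tac.Mtx.F (n = 3, days 26 to 67). Sirolimus with belatacept, which blocks CD28 costimulation, gave Bela.Siro.D14 (n = 3, day 14), Bela.Siro.D30 (n = 2, day 30) and Bela.Siro.F (n = 7, days 26 to 105). The OX40 ligand antibody KY1005 alone gave KY1005.D14 (n = 2, days 14 and 16) and KY1005.F (n = 3, days 16 to 23). The antibody was combined with sirolimus in KY1005.Siro.D14 (n = 5, day 14), KY1005.Siro.D28 (n = 5, day 28) and KY1005.Siro.F (n = 4, days 97 to 106). The labels do not explain the suffix F, and sampling days differ between groups, so regimen and day cannot be told apart in most comparisons.

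The sources used here do not give age, donor matching or conditioning. Some animals recur between groups. The 2 healthy arrays of animal R.201 were averaged, which left 101 arrays, and the number of arrays limits the precision. The arrays carry 6 batch labels, and all 5 KY1005 groups are in batch 6, with 7 healthy arrays. The belatacept groups are in batch 3, and NoRx.F and Siro.F are in batches 1 and 2. Comparisons of NoRx.F or Siro.F with KY1005 or belatacept groups thus lean on the batch term. In 6 arrays the log2 ratio of the actin control probe sets at the 3' end to those at the 5' end, a measure of RNA integrity, was above 2.5: healthy R.208 (3.95), R.22 (3.69), R.207 (3.30) and R.32 (2.94), and Auto.D14 R.202 (3.38) and R.201 (3.30). The next highest array was at 2.32. R.208 and R.207 are 2 of the 7 healthy arrays of batch 6, and R.208 was the lowest of all healthy arrays for BAX, CASP8 and TNFSF10. Results that rest on these 6 arrays are given with and without them. Of 12 listed T cell genes, 6 had a usable probe set (CD5, CD6, ZAP70, CD28, LAT and TRAT1), and their mean log2 level differed from the healthy mean by −0.59 to 0.38 in the transplant arrays. Genes of myeloid cells were present in the sorted cells: their mean log2 level, over 11 of 14 listed genes, was 4.60 above the healthy mean in the highest array, KY1005.Siro.F R.219, against at most 1.52 above it in any healthy array.

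Levels are log2 signals and differences are log2 units from a limma model over all 16 groups and the batches. Each gene is read by its probe set of highest mean unless another is named. A gene is said to have risen or fallen where its adjusted p was below 0.05, with the adjustment over all 31710 probe sets kept. All comparisons with healthy controls share the same healthy arrays. Each array of the groups after transplant, and each of the 4 healthy arrays of high actin ratio, was left out in turn. In the plot of differences from healthy controls, BCL2, BAX and TNFSF10 hold 16 of the 20 calls, and all 16 are rises. Over all genes the share called ran from 0.271% in KY1005.D14 to 34.2% in NoRx.F. Among the called genes, the share that was higher ran from 37.9% in KY1005.Siro.D14 to 86.7% in Tac.Mtx.D14. Without all arrays of high actin ratio, every TNFSF10 call of the plot was lost. The BAX calls in KY1005.Siro.D14 and KY1005.Siro.D28 were lost too. The BCL2 calls of the plot and its other BAX calls held.

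**Figure D1:**
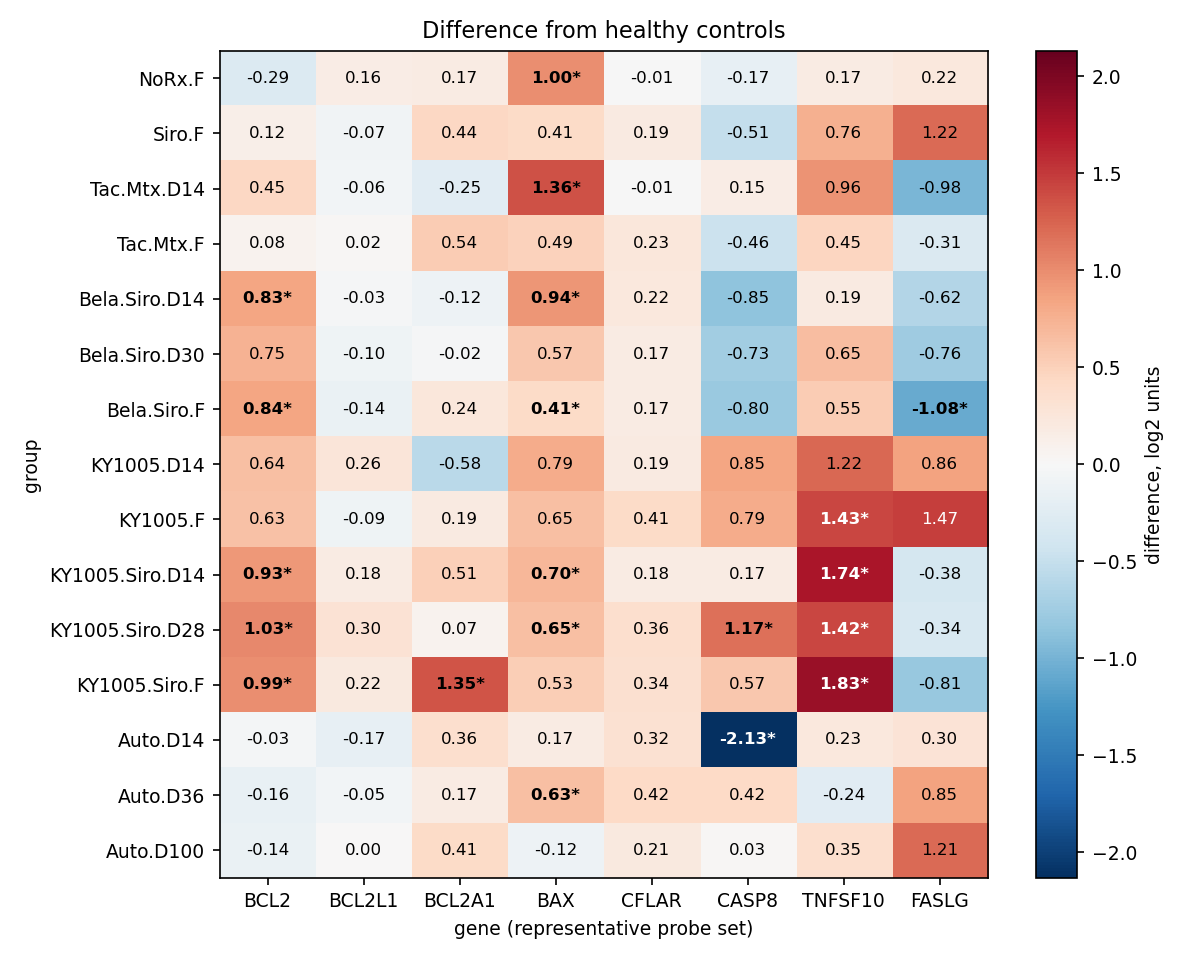
Difference of each gene (columns) from healthy controls in each group after transplant (rows), in log2 units, from the limma model; red is higher, blue is lower, and bold values with an asterisk have an adjusted p below 0.05. BCL2 differs by 0.83 to 1.03 in its 5 called groups, all given sirolimus with belatacept or KY1005, while BCL2L1 and CFLAR have no asterisk.

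The largest count of called members was in KY1005.Siro.D28, where 4 of 8 rose (BCL2, BAX, CASP8 and TNFSF10), against 11.3% of the 10718 genes called in that comparison. In KY1005.Siro.D14, 3 of 8 rose (BCL2, BAX and TNFSF10), against 4.6% of genes. In KY1005.Siro.F, 3 of 8 rose (BCL2, BCL2A1 and TNFSF10), against 7.87% of genes. KY1005 alone gave 1 of 8 in KY1005.F (TNFSF10, against 3.83% of genes) and 0 of 8 in KY1005.D14, where 0.271% of genes were called from 2 arrays. In Bela.Siro.F, BCL2 and BAX rose and FASLG fell, 3 of 8 against 11.7% of genes. In Bela.Siro.D14, BCL2 and BAX rose, 2 of 8 against 3.08% of genes, and in Bela.Siro.D30, with 2 arrays, 0 of 8 were called against 1.22% of genes.

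In the other groups at most 1 of 8 members was called. BAX was the single member called in NoRx.F, where 34.2% of genes were called, in Tac.Mtx.D14, where 1.18% were, and in Auto.D36, where 11% were. CASP8 fell in Auto.D14, the single member called against 21.5% of genes. In Siro.F, Tac.Mtx.F and Auto.D100, 0 of 8 were called, against 11%, 12.9% and 3.06% of genes. Whether these counts differ between regimens was not tested.

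BCL2, the guardian that keeps resting lymphocytes alive, was higher than in healthy controls after sirolimus combined with belatacept or with KY1005. Healthy arrays ran from 6.91 to 8.21, with a median of 7.75. In KY1005.Siro.D28 the 5 arrays were at 8.44, 8.59, 8.79, 8.58 and 8.87, all above the highest healthy array. In KY1005.Siro.D14 they were at 8.15, 8.95, 9.17, 8.41 and 8.11, with 3 of 5 above the healthy range and the other two inside it. In KY1005.Siro.F they were at 7.97, 8.03, 9.46 and 9.02, split into a pair inside the healthy range and a pair above it. The differences from healthy controls were 0.93 ± 0.19 (SE, n = 5, adjusted p 0.00163) on day 14, 1.03 ± 0.19 (n = 5, 0.000201) on day 28 and 0.99 ± 0.21 (n = 4, 0.000767) in KY1005.Siro.F, which are 1.91-fold, 2.04-fold and 1.99-fold. Without the 6 arrays of high actin ratio they were 0.78 ± 0.21 (adjusted p 0.0239), 0.88 ± 0.21 (0.00922) and 0.84 ± 0.22 (0.0175). Within batch 6 alone the KY1005.Siro.F difference missed the threshold (adjusted p 0.0586), and the other 2 stayed past it (0.0446 and 0.0166).

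Belatacept with sirolimus gave BCL2 values of similar height. Bela.Siro.F ran from 7.84 to 8.93 with a median of 8.55, and 6 of its 7 arrays were above every healthy array. Its difference from healthy controls was 0.84 ± 0.15 (n = 7, adjusted p 6.03e-05), or 1.79-fold, and it was called under all 13 alternatives and with each array left out. In Bela.Siro.D14 the arrays were at 8.80, 8.57 and 8.17, a difference of 0.83 ± 0.21 (n = 3, adjusted p 0.0167). That call was lost without R.38 (0.69, adjusted p 0.128) or R.42 (0.81, adjusted p 0.157), and with the myeloid score as a covariate (0.79, adjusted p 0.0661). In Bela.Siro.D30 the arrays were at 8.73 and 8.12, a difference of 0.75 ± 0.25 (n = 2, adjusted p 0.131).

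In the remaining groups BCL2 was not called. KY1005 alone put it at 8.30 and 8.23 in KY1005.D14 and at 8.15, 8.04 and 8.56 in KY1005.F, differences of 0.64 ± 0.26 (n = 2, adjusted p 0.306) and 0.63 ± 0.23 (n = 3, adjusted p 0.0969). The 2 KY1005.D14 arrays were just above the highest healthy array. Between KY1005.Siro.D14 and KY1005.F the BCL2 difference was not called. With 1 array left out at a time, KY1005.Siro.D14 was higher by 0.15 to 0.46 (limma, lowest adjusted p 0.389). NoRx.F had the lowest mean of all groups, with arrays at 7.67, 7.59, 6.99 and 7.38 and a difference of −0.29 ± 0.19 (n = 4, adjusted p 0.285). Tac.Mtx.D14 was at 8.20, 8.01 and 8.17 (0.45 ± 0.21, n = 3, adjusted p 0.314). Siro.F was widely spread, at 8.59, 8.09, 7.23 and 7.57 (0.12 ± 0.19, n = 4, adjusted p 0.773). The autologous groups lay between −0.16 and −0.03 from healthy controls, with adjusted p of 0.698 to 0.937.

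Set against untreated recipients, BCL2 was higher with KY1005. KY1005.Siro.D14 was above NoRx.F by 1.22 ± 0.27 (n = 5 and 4, adjusted p 0.000797), or 2.33-fold, and the arrays of the 2 groups did not overlap. The call held under all 12 alternatives and with each array left out. In that comparison 2 of 8 members rose (BCL2 and TNFSF10), against 19.4% of genes called. KY1005.F was above NoRx.F by 0.92 ± 0.30 (n = 3 and 4, adjusted p 0.04), again without overlap, and BCL2 was the single member called against 11% of genes. That call was lost without the arrays of high actin ratio (0.77 ± 0.31, adjusted p 0.151), with array weights (0.59, adjusted p 0.117), with further quantile normalization (0.0738), with only the 2 groups (0.0507) and with no filter (0.0503). It was lost as well without any one of 4 arrays: KY1005.F R.211 (0.97, adjusted p 0.0563) or R.212 (0.76, 0.167), and NoRx.F R.51 (0.80, 0.0964) or R.52 (0.92, 0.0586). These groups share no batch, so the difference leans on the batch term and on the healthy arrays that link the batches.

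Against sirolimus alone the BCL2 difference did not pass the threshold. Bela.Siro.F was above Siro.F by 0.72 ± 0.24 (adjusted p 0.154), and KY1005.Siro.D14 was above Siro.F by 0.81 ± 0.27 (adjusted p 0.1). These 2 comparisons were added after the values were seen. In neither do the groups share a batch, so both differences lean on the batch term and on the healthy arrays that link the batches. Without Siro.F R.13, the array at 8.59, both passed, at 0.96 (adjusted p 0.038) and 1.05 (adjusted p 0.04). In Bela.Siro.F against Siro.F 1 of 8 members was called (FASLG), against 0.942% of genes, and in KY1005.Siro.D14 against Siro.F 0 of 8, against 1.22%. Bela.Siro.F was above Tac.Mtx.F by 0.76 ± 0.23 (adjusted p 0.0512), with 0 of 8 members called against 1.77% of genes. Without Bela.Siro.F R.49 that difference was 0.88 (adjusted p 0.0208).

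**Figure D2:**
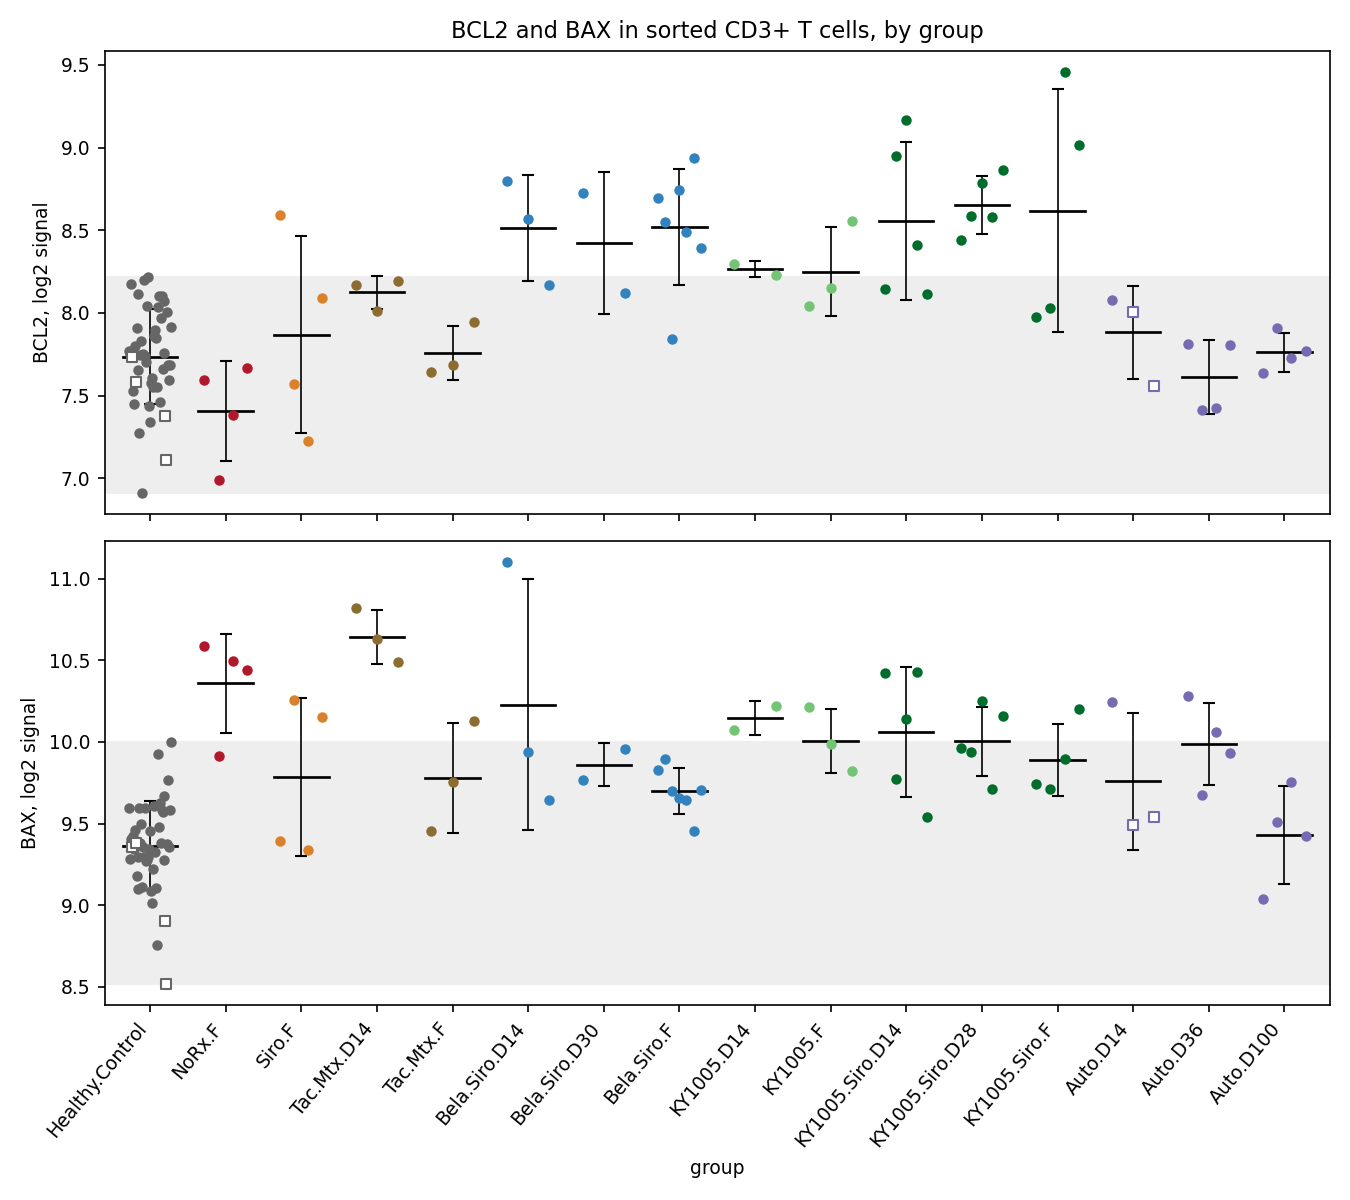
Log2 signal of BCL2 (top) and BAX (bottom) in each array by group; horizontal lines are group means, error bars are SD, the grey band spans the healthy arrays, and open squares are the 6 arrays of high actin ratio. BCL2 is above the band in all 5 KY1005.Siro.D28 arrays and 6 of 7 Bela.Siro.F arrays, and BAX is above it in 3 of 3 Tac.Mtx.D14 and 3 of 4 NoRx.F arrays.

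BCL2L1, which encodes BCL-xL, was called in 0 of 26 comparisons by its main probe set. Its healthy arrays ran from 5.97 to 6.92 with a median of 6.51, and group means lay between 6.33 in KY1005.F and 6.73 in KY1005.Siro.D28. Its other 3 probe sets did not follow the main one (r of 0.0793 to 0.164 over 101 arrays, a description) and gave 4 calls. Probe sets 3 and 4, numbered by falling mean, rose in Auto.D36 by 0.56 ± 0.13 (n = 4, adjusted p 0.00351) and 0.79 ± 0.15 (adjusted p 0.000489), where the main one differed by −0.05 ± 0.13 (adjusted p 0.877). The second was higher in Siro.F than in NoRx.F by 0.45 ± 0.14 (adjusted p 0.0428), and the third was lower in Bela.Siro.F than in Tac.Mtx.F by a difference of −0.56 ± 0.16 (adjusted p 0.0407). BCL2L1 is therefore uncertain on this array.

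BCL2A1, an NF-kB target that is also strongly made by myeloid cells, rose in KY1005.Siro.F. Its arrays were at 8.40, 12.75, 10.54 and 9.98, against a healthy range of 7.95 to 10.42 with a median of 9.09, a difference of 1.35 ± 0.45 (n = 4, adjusted p 0.049). R.219 alone, at 12.75, was far above the rest, and without it the difference was 0.57 (adjusted p 0.501). The myeloid score, the mean log2 level of 11 myeloid genes above the healthy mean, was −0.78 in R.217, 4.60 in R.219, 2.68 in R.220 and 2.74 in R.221, lowest and highest in the same arrays as BCL2A1. In that group 7 of the 11 genes rose (7.87% of all genes called), led by S100A9 (4.41 ± 1.06), S100A8 (4.04 ± 1.03), VCAN (3.57 ± 0.98) and FCN1 (3.38 ± 0.84). With the myeloid score as a covariate the BCL2A1 difference was 0.42 ± 0.42 (adjusted p 0.548). The call was also lost under 7 other alternatives, among them without the arrays of high actin ratio (1.44 ± 0.49, adjusted p 0.109), and without any one of R.220 (adjusted p 0.132), R.221 (0.0594) and the healthy R.22 (0.05), R.32 (0.0509), R.207 (0.0767) and R.208 (0.0745).

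In the 45 healthy arrays BCL2A1 and the myeloid score had a Pearson r of 0.39 (permutation p 0.00801, adjusted 0.0641 over 16 relations) and a Spearman rho of 0.373 (permutation p 0.0121, adjusted 0.097). Without the 2 arrays farthest from the median score r was 0.283. Another high BCL2A1 array, KY1005.F R.211 at 10.99, had a myeloid score of 2.69, while the other two of its group were at 8.77 and 8.01, with scores of 0.11 and 0.80. In such bulk samples, RNA from more cells of a type and more RNA per cell cannot be told apart.

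**Figure D3:**
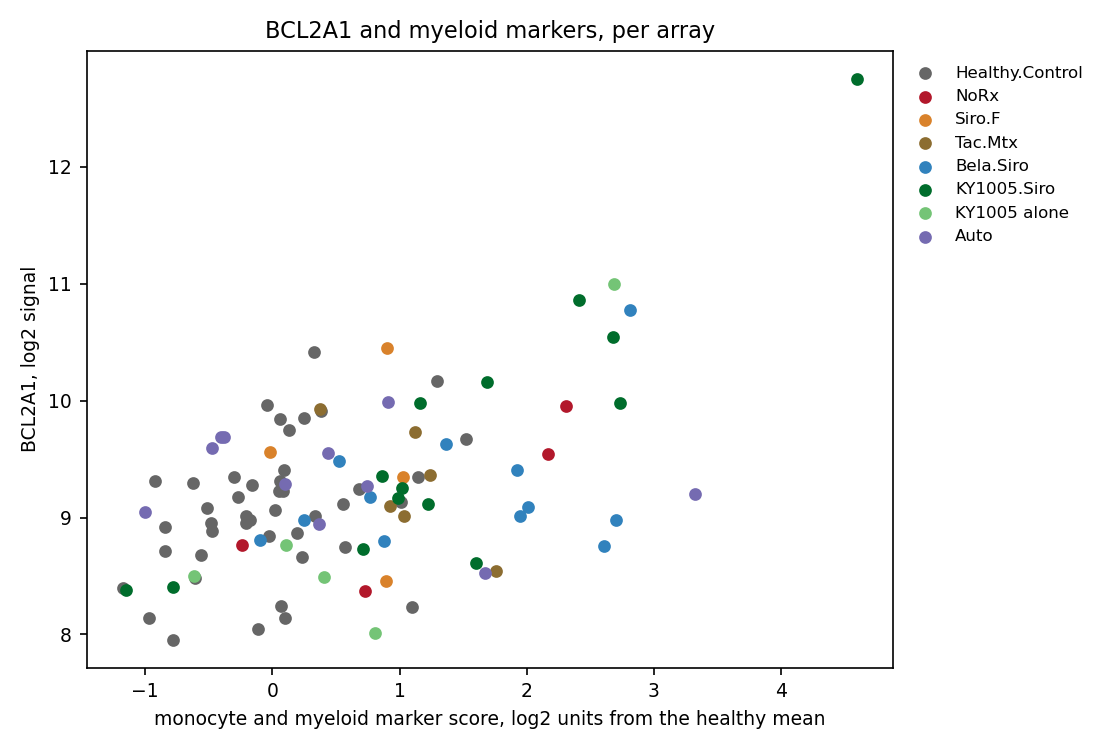
Log2 signal of BCL2A1 against the myeloid marker score (mean log2 level of 11 genes, as the difference from the healthy mean) in each array, coloured by regimen. The highest point on both axes is KY1005.Siro.F R.219, with BCL2A1 at 12.75 and a score of 4.60.

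Of the other guardians and inhibitors of apoptosis, 7 of 10 listed genes were measured, and few changed. BIRC3, an inhibitor of apoptosis that NF-kB induces, fell in NoRx.F by 1.44 ± 0.30 and was higher than in NoRx.F in Siro.F (1.16 ± 0.36) and KY1005.Siro.D14 (1.64 ± 0.42). BIRC6 fell by 0.58 ± 0.15 in KY1005.F and by 0.49 ± 0.13 in KY1005.Siro.F. Over all genes 34.2% were called in NoRx.F, 3.83% in KY1005.F and 7.87% in KY1005.Siro.F. The share was 9.03% in Siro.F against NoRx.F and 19.4% in KY1005.Siro.D14 against NoRx.F. The list's median difference from healthy controls lay between −0.12 and 0.10 over the 15 groups.

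BAX, the pore former of the mitochondrial route, rose in 7 of 15 groups. Healthy arrays had a median of 9.36, a lowest value of 8.52 and a mean of 9.37 ± 0.27 (SD, n = 45). In Tac.Mtx.D14 the arrays were at 10.49, 10.63 and 10.82, all above the healthy range. In NoRx.F they were at 10.44, 10.58, 9.92 and 10.49, and 3 of 4 were above it. The differences were 1.36 ± 0.19 (n = 3, adjusted p 3.93e-06), or 2.56-fold, and 1.00 ± 0.18 (n = 4, adjusted p 4.74e-06), or 2.00-fold. Both were called under all 13 alternatives and with each array left out. The 3 BAX probe sets followed each other (r of 0.86 to 0.932 over 101 arrays, a description), and all 3 rose in both groups.

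The BAX rises in Bela.Siro.D14 and Auto.D36 held under all 13 alternatives but leaned on single arrays. In Bela.Siro.D14 the arrays were at 11.10, 9.94 and 9.64, a difference of 0.94 ± 0.19 (n = 3, adjusted p 0.00188), and without R.38, the array at 11.10, it was 0.50 (adjusted p 0.203). In Auto.D36 they were at 10.28, 9.67, 10.06 and 9.93, a difference of 0.63 ± 0.18 (n = 4, adjusted p 0.013). Without R.62 it was 0.52 (adjusted p 0.103), and without R.201 it was 0.61 (adjusted p 0.0592). All 4 Auto.D36 animals had a healthy array of their own, and BAX was higher after transplant in 4 of 4, by 0.20 to 0.55.

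The remaining BAX rises were less stable. In Bela.Siro.F, which ran from 9.45 to 9.89 with a median of 9.70 inside the healthy range, the difference was 0.41 ± 0.14 (n = 7, adjusted p 0.047). It kept its call in 1 of 7 fits that left out an array of that group: the adjusted p was 0.0771 without R.38, 0.103 without R.42, 0.0795 without R.49, 0.0742 without R.66, 0.0696 without R.67 and 0.064 without R.70. It was also lost with the animal as a replicate block (0.40, adjusted p 0.0522), with no batch term (0.0517), with no filter (0.069), with the gene's probe sets averaged (0.0591) and with the myeloid score as a covariate (0.243). KY1005.Siro.D14 was at 10.42, 9.77, 10.14, 10.43 and 9.54 (0.70 ± 0.18, n = 5, adjusted p 0.0111), and KY1005.Siro.D28 at 9.96, 9.94, 10.25, 9.71 and 10.16 (0.65 ± 0.18, n = 5, adjusted p 0.00959). Without the 6 arrays of high actin ratio, R.208 and R.207 among them, these became 0.44 ± 0.18 (adjusted p 0.146) and 0.39 ± 0.18 (adjusted p 0.286). Within batch 6 they were also not called (adjusted p 0.0825 and 0.0654). Without R.217 the first was 0.61 (adjusted p 0.059), and without healthy R.208 the second was 0.51 (adjusted p 0.0618). With KY1005 alone BAX was not called, though its values were of similar height. KY1005.D14 was at 10.07 and 10.22, above the highest healthy array, and KY1005.F at 9.99, 10.21 and 9.82. With 1 array left out at a time, the KY1005.F difference ran from 0.51 to 0.74. Siro.F, at 9.39, 10.15, 9.34 and 10.26, was not called.

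BAX differed between time points of the same regimen in values but not past the threshold. It was lower in Tac.Mtx.F (10.13, 9.75 and 9.46) than in Tac.Mtx.D14 in 3 of 3 animals, by −0.86 ± 0.25 (adjusted p 0.534). This was not particular to BAX. BCL2 and CASP8 were also lower in 3 of 3 animals, and BCL2A1 (by 0.72 to 0.83) and CFLAR were higher in 3 of 3. BCL2L1, TNFSF10 and FASLG did not move in a single direction. In that comparison 0 of 8 members were called, against 0.00933% of genes.

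Of 14 other pro-apoptotic genes of the BCL2 family 8 were measured, and some of them rose in every allogeneic group without KY1005 except Bela.Siro.D30. In NoRx.F 4 of 8 rose and 0 fell: BCL2L14 by 2.09 ± 0.24, BCL2L11, which encodes BIM, by 1.47 ± 0.22, BAK1, the other pore former, by 1.36 ± 0.15 and BIK by 1.24 ± 0.27. The list's median difference there was 0.73, against 0.05 over all genes, of which 34.2% were called. In Siro.F, against 11% of all genes called, 5 of 8 rose, led by BIK (1.19 ± 0.26), BCL2L14 (1.12 ± 0.23), BCL2L11 (0.99 ± 0.21) and BAK1 (0.64 ± 0.15). In Tac.Mtx.F 4 of 8 rose (12.9% of all genes called), and in Tac.Mtx.D14 2 of 8 did (1.18%), BCL2L14 (1.44 ± 0.26) and BBC3, which encodes the p53 target PUMA (1.02 ± 0.16).

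In the 5 groups given KY1005, 0 of 8 of these genes were called in either direction, with medians from 0.18 to 0.43. Over all genes the share called in these groups ran from 0.271% to 11.3%, so a count of 0 of 8 is near that background. The list's mean log2 level was above the highest healthy array (0.33 over the healthy mean) in 3 of 3 KY1005.F arrays, at 0.36 to 0.69, and in both KY1005.D14 arrays, at 0.41 and 0.60. KY1005.Siro.D14 ran from 0.21 to 0.39. Of the groups with calls, Bela.Siro.D14 was at 0.14, 0.04 and 0.40, Bela.Siro.F ran from 0.08 to 0.68 and NoRx.F from 0.38 to 0.78. Groups with and without calls thus overlapped in level. In the direct comparison, with 19.4% of all genes called, KY1005.Siro.D14 was below NoRx.F for 3 of 8, BCL2L14 (−1.80 ± 0.34), BCL2L11 (−1.32 ± 0.31) and BAK1 (−1.11 ± 0.22). KY1005.F was below NoRx.F for BCL2L14 (−1.26 ± 0.37) and BAK1 (−0.90 ± 0.24), and Siro.F was below NoRx.F for the same pair (−0.97 ± 0.29 and −0.73 ± 0.19). Among autologous recipients 6 of 8 rose in Auto.D14, where 21.5% of all genes were called. The largest rises there were those of BCL2L14 (1.43 ± 0.30) and BIK (1.19 ± 0.34). That group holds arrays of high actin ratio, R.201 and R.202. In Auto.D36 3 of 8 rose (11% of all genes called), and in Auto.D100 0 of 8 did (3.06%).

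Of 18 listed p53 targets, of which BAX is another, 14 were measured. In Tac.Mtx.D14 3 rose (1.18% of all genes called), ZMAT3 by 1.80 ± 0.30, DDB2 by 1.17 ± 0.16 and PHLDA3 by 0.66 ± 0.11. The same 3 rose in Bela.Siro.D14 (3.08%) by 1.01 ± 0.30, 0.59 ± 0.16 and 0.41 ± 0.11. In NoRx.F, where BAX also rose and 34.2% of all genes were called, SESN1 fell by 2.32 ± 0.24 and BTG2 by 1.25 ± 0.39, and DDB2 rose by 0.45 ± 0.15.

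CFLAR, which encodes the caspase-8 inhibitor c-FLIP, was called in 0 of 26 comparisons by its main probe set. Its healthy arrays ran from 8.98 to 9.93 with a median of 9.49, and the differences from healthy controls lay between −0.01 and 0.42, the highest in Auto.D36 (0.42 ± 0.15, n = 4, adjusted p 0.0576). It passed in Auto.D14 without R.200 (0.57, adjusted p 0.0352), which left only the 2 arrays of high actin ratio, and in KY1005.Siro.F without R.217 (0.50, adjusted p 0.0464). The other 3 probe sets followed each other (r of 0.924 to 0.982 over arrays) but followed the main one weakly (0.282 to 0.329). All 3 rose in KY1005.Siro.F, by 1.17 ± 0.34 (adjusted p 0.0239), 0.86 ± 0.27 (0.038) and 1.07 ± 0.32 (0.0307), where the main one differed by 0.34 ± 0.16 (adjusted p 0.182). Myeloid and erythroid genes rose in that group too, and their part in the rise of these 3 probe sets was not tested. The second fell in Auto.D14 by 1.14 ± 0.40 (n = 3, adjusted p 0.0359). That group holds 2 of the arrays of high actin ratio.

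CASP8, the initiator caspase of the death receptor route, had its lowest values in Auto.D14. Its healthy arrays ran from 5.71 to 10.10 with a median of 9.07, and the lowest of them was R.208, which also had the highest actin ratio. The Auto.D14 arrays were at 6.96 in R.201, 6.32 in R.202 and 8.97 in R.200. R.201 and R.202 had actin ratios of 3.30 and 3.38, and R.200 had one of 0.44. The difference from healthy controls was −2.13 ± 0.49 (n = 3, adjusted p 0.00225), or 4.38-fold. Without the 6 arrays of high actin ratio it was −0.59 ± 0.56 (adjusted p 0.811), which rests on R.200 alone in that group, and without R.202 it was −1.58 (adjusted p 0.0938). The actin ratio moved with the result, and its part in it was tested only by leaving arrays out.

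The same arrays set the rise of CASP8 with time. In the 3 autologous animals sampled at both times CASP8 was at 9.68 (R.200), 9.70 (R.201) and 9.79 (R.202) on day 100, higher than on day 14 in 3 of 3. The difference between Auto.D100 and Auto.D14 was 2.16 ± 0.52 (n = 4 and 3, adjusted p 0.00865), and CASP8 was the single member called there, against 6.44% of genes. With the animal as a fixed replicate block the difference was 2.31 and was not called (adjusted p 0.112), nor was it within batches (0.0658) or with only the 2 groups (0.216). The call was also lost without the arrays of high actin ratio (0.59 ± 0.57, adjusted p 1), without Auto.D14 R.201 (1.93, adjusted p 0.172) and without R.202 (1.61, adjusted p 0.291).

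CASP8 rose in KY1005.Siro.D28, at 9.84, 9.37, 9.63, 9.25 and 10.45, by 1.17 ± 0.39 (n = 5, adjusted p 0.0361). All 5 arrays were above the healthy median and 1 was above the healthy range. Without the 6 arrays of high actin ratio the difference was 0.43 ± 0.32 (adjusted p 0.633). With array weights it was 0.55 (adjusted p 0.178) and with no batch term 0.76 (0.104), and the call was also lost within batch 6 (0.14), with only the 2 groups (0.0618) and with no filter (0.0542). It was 0.70 (adjusted p 0.258) without healthy R.208 and 1.03 (adjusted p 0.118) without healthy R.207. Of the arrays of its own group, the call was lost without R.217 (1.14, adjusted p 0.0786), R.219 (1.19, 0.0552) or R.221 (0.98, 0.144). From day 14 to day 28 CASP8 was higher in 5 of 5 animals, by 0.13 to 2.08, and the difference of 0.99 ± 0.42 was not called (adjusted p 0.464), with 0 of 8 members called against 0.00933% of genes.

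Apart from the 6 arrays, CASP8 was lower where the actin ratio was higher. Over the 41 healthy arrays with a ratio of at most 2.5, Pearson r was −0.428 (permutation p 0.00496, adjusted 0.0641 over 16 relations) and Spearman rho was −0.478 (permutation p 0.00166, adjusted 0.0266). Without the 2 arrays farthest from the median ratio r was −0.375. In Bela.Siro.F, whose actin ratios ran from 1.02 to 2.32, CASP8 ran from 7.11 to 9.06 with a median of 8.22. All 7 arrays were below the healthy median, and the difference of −0.80 ± 0.31 was not called (adjusted p 0.0904). It passed without R.70 (−0.94, adjusted p 0.0489) and without healthy R.208 (−0.80, adjusted p 0.0421). For BAX, TNFSF10 and BCL2 the same relation in healthy arrays gave r of −0.256, 0.31 and −0.0994, with adjusted permutation p of 0.342, 0.263 and 0.716.

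**Figure D4:**
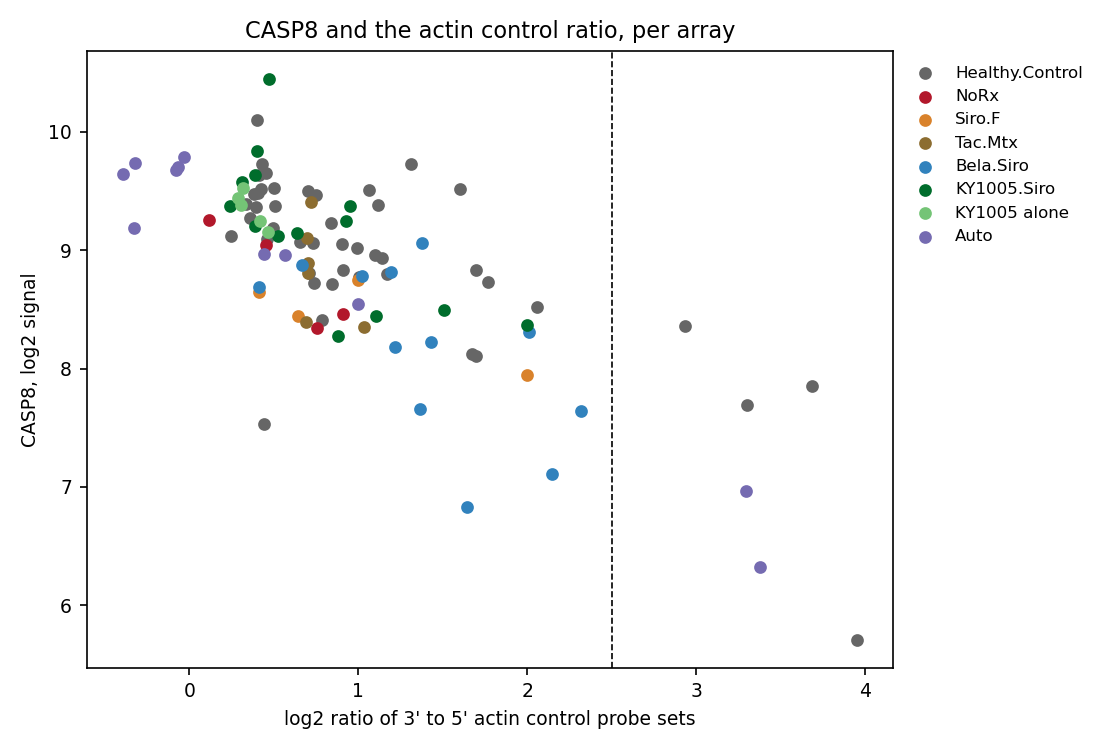
Log2 signal of CASP8 against the actin ratio (3' over 5' control probe sets, log2) in each array, coloured by regimen; the dashed line is at 2.5. The 6 arrays to the right of the line, 4 healthy and 2 of Auto.D14, have CASP8 between 5.71 and 8.36.

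Of 16 listed caspases and their partners 9 were measured, and DIABLO and PARP1 were the ones called in any of the 26 comparisons. DIABLO, which encodes the mitochondrial protein that relieves the block on caspases, rose in NoRx.F (0.73 ± 0.13), Auto.D14 (0.58 ± 0.16) and Tac.Mtx.F (0.52 ± 0.14). Over all genes 34.2%, 21.5% and 12.9% were called in these groups. Auto.D14 holds arrays of high actin ratio, R.201 and R.202.

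TNFSF10, which encodes TRAIL, rose in all 3 groups given KY1005 with sirolimus, and its highest group means were 11.54 in KY1005.Siro.F and 11.45 in KY1005.Siro.D14. Healthy arrays ran widely, from 7.51 to 11.42 with a median of 10.10. The arrays were at 11.78, 11.38, 11.29, 11.68 and 11.11 in KY1005.Siro.D14, at 10.69, 11.39, 11.35, 11.48 and 10.72 in KY1005.Siro.D28, and at 11.37, 11.33, 11.68 and 11.78 in KY1005.Siro.F. All 14 were above the healthy median, and 5 of 14 were above the healthy range. The differences were 1.74 ± 0.37 (n = 5, adjusted p 0.00234), 1.42 ± 0.37 (n = 5, 0.0069) and 1.83 ± 0.40 (n = 4, 0.00136), or 3.35-fold, 2.68-fold and 3.57-fold by the main probe set. Averaged over the gene's 3 kept probe sets they were 0.80 (adjusted p 0.0179), 0.60 (0.0575) and 0.78 (0.0214), so the size depends on the probe set and the day 28 call was lost. With array weights the day 28 difference was 0.88 (adjusted p 0.0378).

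The healthy arrays of batch 6 bore on these differences. In them TNFSF10 was at 7.51 in R.208 and 9.11 in R.207, the arrays of high actin ratio, and at 9.63 to 10.78 in the other 5. Without the 6 arrays of high actin ratio the 3 differences were 1.18 ± 0.36 (adjusted p 0.0513), 0.86 ± 0.36 (0.234) and 1.28 ± 0.38 (0.0542), so all 3 calls were lost. Without healthy R.208 alone the day 28 difference was 1.05 (adjusted p 0.0548). With no batch term the differences were 1.34 ± 0.30, 1.02 ± 0.30 and 1.44 ± 0.33, and all were called.

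Genes of other cells also rose in KY1005.Siro.F: 7 of 11 myeloid genes, as given with BCL2A1, and 3 of 6 measured erythroid genes, SLC25A37 (2.49 ± 0.37), ALAS2 (1.97 ± 0.55) and KLF1 (0.96 ± 0.31), while HBB differed by 0.82 ± 0.68 (adjusted p 0.471). The erythroid score ran from 0.56 to 2.43 there and from −0.61 to 1.32 in healthy arrays. In KY1005.Siro.D14 3 of 11 myeloid and 0 of 6 erythroid genes rose, and in KY1005.Siro.D28 0 of 11 and 0 of 6. Over all genes 7.87% were called in KY1005.Siro.F, 4.6% in KY1005.Siro.D14 and 11.3% in KY1005.Siro.D28. In KY1005.Siro.F TNFSF10 differed by 1.77 (adjusted p 0.0138) with the myeloid and 2.06 (0.00107) with the erythroid score as a covariate, and BCL2 by 0.93 (0.0123) and 0.92 (0.00559).

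In Tac.Mtx.D14 the mean was 11.24, and the difference of 0.96 ± 0.41 was not called (n = 3, adjusted p 0.256). In KY1005.F TNFSF10 rose, at 10.97, 10.94 and 11.50, by 1.43 ± 0.44 (n = 3, adjusted p 0.0486), or 2.70-fold. This call was lost without any one of its 3 arrays (adjusted p 0.119 without R.206, 0.214 without R.211 and 0.162 without R.212) and without healthy R.207 (0.112) or R.208 (0.195). It was also lost without the 6 arrays of high actin ratio (0.87 ± 0.42, adjusted p 0.456), with the probe sets averaged (0.59, adjusted p 0.151) and under 7 of the 11 other alternatives, and with array weights it was 0.74 (adjusted p 0.02). Against NoRx.F (9.97, 10.70, 10.18 and 10.49), KY1005.Siro.D14 was higher by 1.57 ± 0.53 (adjusted p 0.0303) and the groups did not overlap. That call was lost without NoRx.F R.53 (1.37, adjusted p 0.102), without KY1005.Siro.D14 R.217 (1.49, adjusted p 0.0517), without the arrays of high actin ratio (1.04 ± 0.50, adjusted p 0.161) and with array weights (1.03, adjusted p 0.222). With the probe sets averaged it was 0.92 (adjusted p 0.0232). These groups share no batch, and with no batch term the difference was 1.11 ± 0.43 (adjusted p 0.0491).

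The TNFSF10 probe sets did not move together. The second followed the main one (r of 0.783 over 101 arrays), was called in 0 of 5 KY1005 groups, with differences of 0.39 to 0.81, and rose in Bela.Siro.F by 0.82 ± 0.26 (n = 7, adjusted p 0.0304), where the main one differed by 0.55 ± 0.30 (adjusted p 0.251). The third ran the other way (r of −0.324) and fell in NoRx.F by 0.56 ± 0.13 (n = 4, adjusted p 0.000461). TNFSF10 is an interferon-induced gene. Of 28 listed interferon response genes 20 were measured. In KY1005.Siro.F 17 rose and 1 fell (7.87% of all genes called), led by IFIT1 (3.36 ± 0.69), CMPK2 (2.93 ± 0.45), IFI44 (2.89 ± 0.53) and MX1 (2.79 ± 0.53). In KY1005.Siro.D14 2 rose and 1 fell (4.6%), and in KY1005.Siro.D28 3 rose and 1 fell (11.3%). In NoRx.F, where the main TNFSF10 probe set differed from healthy controls by 0.17 ± 0.37, 12 rose and 1 fell (34.2%).

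FASLG, the gene of Fas ligand, fell in Bela.Siro.F. It is near the floor of the array: 66 of 101 arrays reached the median of all values, 5.21. Healthy arrays ran from 4.71 to 7.45 with a median of 5.47. Bela.Siro.F ran from 4.57 to 5.38 with a median of 4.85, so all 7 arrays were below the healthy median and 3 were below the healthy range. The difference was −1.08 ± 0.35 (n = 7, adjusted p 0.0326), or 2.11-fold. It was lost without R.42 (−1.04, adjusted p 0.0645), R.49 (−1.09, 0.052), R.66 (−1.04, 0.0717) or R.67 (−1.03, 0.0697), and with the myeloid score as a covariate (−0.83 ± 0.37, adjusted p 0.235). At the earlier times of the same regimen FASLG was not called: Bela.Siro.D14 was at 5.62, 4.15 and 6.11 (−0.62 ± 0.47, n = 3, adjusted p 0.451) and Bela.Siro.D30 at 5.96 and 4.35 (−0.76 ± 0.56, n = 2, adjusted p 0.622). Both groups had arrays above the healthy median and an array below the healthy range.

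Some genes of NK cells also fell in Bela.Siro.F, where 11.7% of all genes were called. Of 8 listed NK cell genes 5 were measured, and KLRF1 fell by 1.90 ± 0.50 and XCL1 by 1.71 ± 0.51. The others were not called: SH2D1B differed by −0.81 (adjusted p 0.112), NCR3 by 0.09 (0.675) and NCAM1 by 0.0006 (0.998). The mean log2 level of the 5 genes, as the difference from the healthy mean, ran from −1.42 to −0.33 in Bela.Siro.F and from −0.85 to 0.84 in healthy arrays. In NoRx.F, where 34.2% of all genes were called, KLRF1 fell by 2.79 ± 0.64. FASLG there was at 7.82, 4.63, 4.69 and 5.31 (0.22 ± 0.44, adjusted p 0.765). The part of NK cells in the FASLG result was not tested.

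FASLG was high in some animals given sirolimus alone or KY1005 alone. Siro.F was at 5.64 in R.13, 8.49 in R.18, 5.65 in R.17 and 7.20 in R.16, a difference from healthy controls of 1.22 ± 0.42 (n = 4, adjusted p 0.0517). It passed without R.13 (1.74, adjusted p 0.013), R.17 (1.49, 0.0295) or healthy R.208 (1.22, 0.048). Bela.Siro.F was below Siro.F by −2.29 ± 0.54 (adjusted p 0.0238), or 4.90-fold, with no overlap. That call was lost without Siro.F R.18 (−1.73, adjusted p 0.282) or R.16 (−2.06, 0.0863), and with only the 2 groups (adjusted p 0.135). The 2 groups share no batch, so the size leans on the batch term. With no batch term the difference was −1.90 ± 0.46 (adjusted p 0.0137). KY1005.F was at 8.21, 7.46 and 5.57, a difference from healthy controls of 1.47 ± 0.51 (n = 3, adjusted p 0.0819), which was 2.23 (adjusted p 0.0171) without R.212. KY1005.Siro.D14, at 5.96, 5.53, 4.88, 4.81 and 4.95, was below KY1005.F by −1.85 ± 0.54 (adjusted p 0.0791), with 0 of 8 members called against 0.355% of genes. Without KY1005.F R.212 it was −2.61 (adjusted p 0.0211).

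Other contrasts of FASLG also turned on single arrays. Siro.F was above NoRx.F by 1.00 ± 0.53 (adjusted p 0.296), with 0 of 8 members called against 9.03% of genes. Without NoRx.F R.53, the array at 7.82, FASLG was higher than in NoRx.F by 1.80 in Siro.F (adjusted p 0.0283) and by 2.13 in KY1005.F (adjusted p 0.0318). In 4 of 4 Auto.D36 and 4 of 4 Auto.D100 animals FASLG was above the animal's own healthy array, by 0.65 to 0.98 and 0.35 to 1.12. Against all healthy controls these groups differed by 0.85 ± 0.43 (adjusted p 0.226) and 1.21 ± 0.46 (adjusted p 0.139), and neither difference passed the test.

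**Figure D5:**
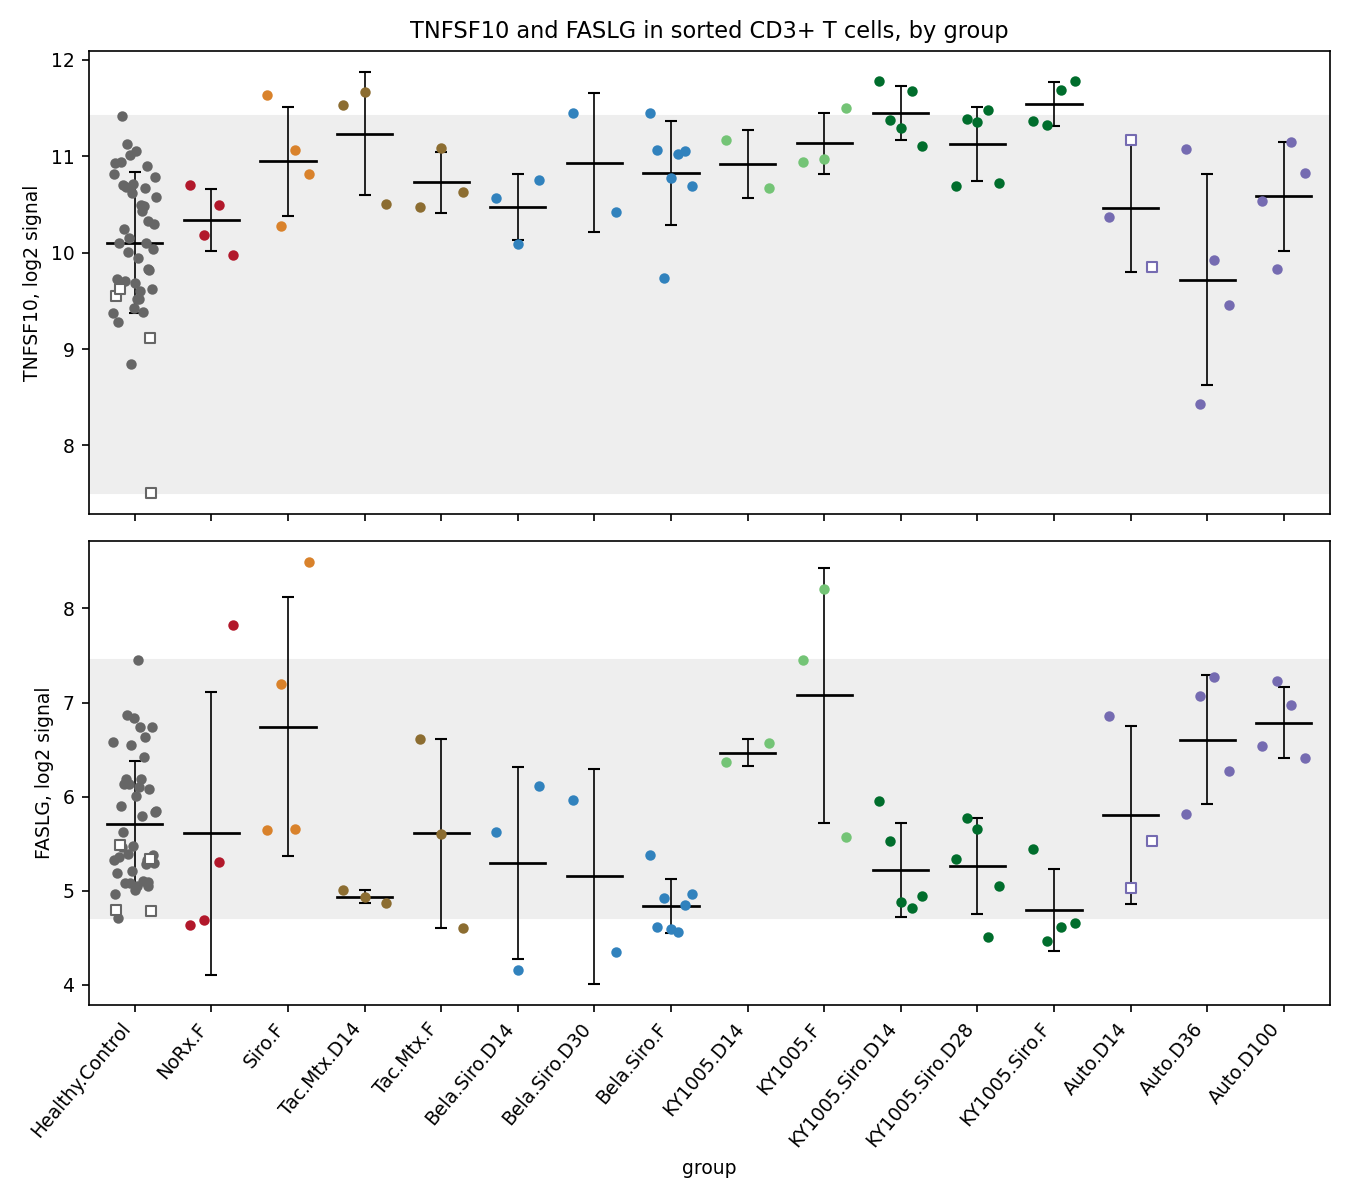
Log2 signal of TNFSF10 (top) and FASLG (bottom) in each array by group, with group means as lines, SD as error bars, the healthy range as a grey band and the 6 arrays of high actin ratio as open squares. All 14 KY1005 with sirolimus arrays are above the healthy TNFSF10 median of 10.10, and the 7 Bela.Siro.F arrays are at FASLG values of 4.57 to 5.38.

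Of the receptors and partners of these ligands, 9 of 19 listed genes were measured. TNFRSF10A, a TRAIL receptor, fell in NoRx.F by 1.11 ± 0.25 and in Auto.D36 by 0.81 ± 0.25, and was higher than in NoRx.F in Siro.F (1.23 ± 0.31) and KY1005.Siro.D14 (1.15 ± 0.36). TNFRSF25, a death receptor of T cells, fell in NoRx.F by 1.28 ± 0.21, in KY1005.F by 0.89 ± 0.24 and in Auto.D36 by 0.80 ± 0.20. FAS, the receptor of Fas ligand, rose in Tac.Mtx.F by 0.99 ± 0.33. TNFSF14, another ligand of the family, fell in Bela.Siro.F by 0.58 ± 0.15. Over all genes the share called was 34.2% in NoRx.F, 11% in Auto.D36, 3.83% in KY1005.F, 12.9% in Tac.Mtx.F and 11.7% in Bela.Siro.F. It was 9.03% in Siro.F against NoRx.F and 19.4% in KY1005.Siro.D14 against NoRx.F.

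Of 15 listed NF-kB targets 14 were measured. In KY1005.Siro.D28 4 rose and 0 fell, against 11.3% of all genes called. They were NFKB2 (1.84 ± 0.36), REL (1.61 ± 0.44), BCL3 (0.88 ± 0.23) and NFKBIE (0.78 ± 0.18). In NoRx.F 2 rose and 4 fell, against 34.2% of all genes called, with TNFAIP3 down by 1.29 ± 0.30. BCL2A1, also a target, was not called in either group.

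From day 28 to KY1005.Siro.F, 0 of 8 members were called, against 2.54% of genes. BCL2A1 was higher in 3 of 4 animals, and its difference of 1.28 ± 0.48 was not called (adjusted p 0.2). Without KY1005.Siro.F R.217 it was 1.95 (adjusted p 0.00761).

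Across the 16 group means, a description over groups that share batches, BCL2 was most like PGAP1 (Pearson r 0.937), GNL3 (0.918) and PPIL6 (0.917) among 9934 genes. CASP8 was most like ITFG2 (0.928), MARCHF6 (0.924) and ADPGK (0.917), and FASLG was most like CXCR6 (0.908), TNFSF14 (0.852) and MCOLN2 (0.85). BCL2A1 was most like CD300A (0.843), RAB32 (0.833) and SULF2 (0.818), and TNFSF10 most like MYB (0.842), ZDHHC13 (0.831) and PIM1 (0.826). The closest genes of BAX were TSPO2 (0.792), PNPLA2 (0.722) and PLAC8 (0.701). Those of BCL2L1 were RBM15B (0.755), TMEM41A (0.745) and CNOT8 (0.721), and those of CFLAR were HOOK3 (0.71), TET2 (0.70) and GADD45G (0.662). Among the members, BCL2 had its highest correlation with TNFSF10 (0.71) and its lowest with FASLG (−0.505). By RefSeq's annotation of T2T-MMU8v2.0, CFLAR, CASP10 and CASP8 are neighbours, and FASLG lies beside TNFSF18 and TNFSF4, the gene of the ligand that KY1005 blocks.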

How the data were processed

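CD3-positive T cells were sorted by flow cytometry, and biotinylated cRNA was made from 70 to 85 ng of RNA with a kit that primes at the 3' end, per the labels' protocols, and hybridised to Affymetrix rhesus arrays. The deposited values are log2 signals, made by the authors with RMA in affy, per the submitters' processing notes; versions are not given in the sources used here. Array medians ran from 5.13 to 5.35. In healthy arrays 24.3% of probe sets had a batch F test p above 0.95 and 0.255% one below 0.05, so the values appear to hold an earlier batch adjustment, and the batch term here is a second one.

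Gene names came from the platform annotation, which gives 24969 probe sets a single gene, 361 several and 27535 none; 24629 of the single-gene ones matched the RefSeq table. The filter asked for 3 or more arrays at or over 5.21, the median of the whole table, and 99 control probe sets were left out. Of the 31710 kept, the probe set of highest mean represented each of 10718 genes. The model was fitted in R 4.3.3 by limma 3.58.1 (lmFit and eBayes, all 16 groups, batch as a factor, 80 residual degrees of freedom), with Benjamini-Hochberg adjustment over all probe sets kept. The fit was tested on simulated data. Nothing in the labels says that arrays of a group are more than separate animals. The p-values rest on a spread between arrays pooled over all 16 groups, not on the spread within the groups compared. Arrays of the same animal in different groups count as separate in this model. Permutation tests used 100000 draws (scipy 1.17.1, two-sided). Marker scores are means over a list's representative probe sets, minus the healthy mean. All 8 members were tested in every comparison, and not every result is given in the text. Of each list up to 4 called genes with the largest differences were named, and for each member the 3 genes of most similar group means, leaving out KIR, MHC, T cell receptor and immunoglobulin genes. The members and lists were chosen with earlier results of these data known. Alternatives left out or changed the batch term, filter, prior, weights, normalization, probe sets, covariates or arrays; the covariates, and leaving out single healthy arrays, were chosen after seeing the data. Over 51 pairs of arrays from 1 animal the residuals correlated with a median r of 0.183, so the animal was also fitted as a block.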

Additional observations from a re-analysis of the deposited data

Results flagged for a closer look

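Of 64 sets of 4 to 10 arrays (8 genes by 8 groups) checked for a single array far from the others, 2 were flagged. Chance flags about 1 in 20, so this count is no more than chance gives. BCL2A1 in Bela.Siro.F was at 10.77 in R.42, with the next array at 9.63 and the lowest at 8.76. That array also had the highest myeloid score of its group, 2.81. Its gap to the next array was 0.568 of the range, right at the cutoff of 0.568. CASP8 in Auto.D100 was at 8.55 in R.60, with the others between 9.68 and 9.79. R.60 had an actin ratio of 1.00, against −0.08 to −0.03 in the other 3 arrays, and was the single Auto.D100 array of batch 2.

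CASP8 differed between the autologous time points: Auto.D100 was above Auto.D14 by 2.16 (limma, adjusted p 0.00865). With the animal as a fixed replicate block it was not called (2.31, adjusted p 0.112), nor within batches (0.0658) or with only the 2 groups (0.216). Without the arrays of high actin ratio this was 0.59 (adjusted p 1).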

How the results depend on the processing

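Of the 25 calls of members in the 26 comparisons, 12 were lost without the 6 arrays of high actin ratio. The counts of called members there went from 1 to 0 in Auto.D14, KY1005.F, KY1005.F against NoRx.F and Auto.D100 against Auto.D14, from 3 to 1 in KY1005.Siro.D14 and KY1005.Siro.F, from 4 to 1 in KY1005.Siro.D28, from 2 to 1 in KY1005.Siro.D14 against NoRx.F, and from 0 to 1 in Tac.Mtx.F, Siro.F against NoRx.F, KY1005.Siro.D14 against KY1005.F and Bela.Siro.F against Tac.Mtx.F.

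With the animal as a replicate block (consensus correlation 0.11), Siro.F went from 0 to 1, and 2 of the 25 calls were lost. With the animal as a fixed replicate block, Auto.D100 against Auto.D14 went from 1 to 0. Within the batches that hold the group, KY1005.F and Auto.D100 against Auto.D14 went from 1 to 0, KY1005.Siro.D28 from 4 to 2 and KY1005.Siro.F from 3 to 1. With no batch term, Auto.D36 and KY1005.F went from 1 to 2, and KY1005.D14 and Bela.Siro.F against Tac.Mtx.F from 0 to 1. With only the 2 groups compared, KY1005.F against NoRx.F, Auto.D100 against Auto.D14 and Bela.Siro.F against Siro.F went from 1 to 0.

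With array weights, KY1005.F went from 1 to 6, KY1005.Siro.D14 against KY1005.F from 0 to 4, Auto.D14, Auto.D36 and Auto.D100 against Auto.D14 from 1 to 2, Auto.D100, KY1005.D14, Tac.Mtx.F, Tac.Mtx.F against Tac.Mtx.D14 and Bela.Siro.F against Tac.Mtx.F from 0 to 1, KY1005.F against NoRx.F from 1 to 0, and KY1005.Siro.D14 against NoRx.F from 2 to 1. With the myeloid score as a covariate, Bela.Siro.D14 went from 2 to 1, Bela.Siro.F from 3 to 1, KY1005.F from 1 to 0 and Siro.F from 0 to 1. With the erythroid score, KY1005.F went from 1 to 0 and Bela.Siro.F against Tac.Mtx.F from 0 to 1. With no filter, KY1005.F and KY1005.F against NoRx.F went from 1 to 0. With a filter on the mean, Siro.F went from 0 to 1. With a gene's probe sets averaged, Auto.D36 went from 1 to 2, Siro.F from 0 to 2, KY1005.F from 1 to 0 and Bela.Siro.F against Tac.Mtx.F from 0 to 1, and BCL2L1 in Auto.D36 turned from −0.05 to 0.38 (adjusted p 0.00452). The trended robust prior moved no count by over 1.5 times. The causes were not tested.

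With further quantile normalization, KY1005.F and KY1005.F against NoRx.F went from 1 to 0, Siro.F from 0 to 2 and Bela.Siro.F against Tac.Mtx.F from 0 to 1. Among all called genes the share that was higher moved from 43.3% to 56.4% in Auto.D14, from 60.9% to 34% in KY1005.D14, from 52.3% to 34.4% in KY1005.F, from 66.9% to 47.3% in KY1005.Siro.F, from 53.4% to 39.6% in KY1005.F against NoRx.F, from 27% to 55.4% in KY1005.Siro.D14 against KY1005.F and from 75.7% to 57.3% in Auto.D100 against Auto.D14.

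Leaving out 1 array at a time, the counts ran from 0 to 1 in Auto.D36, KY1005.F, Siro.F, Auto.D100 against Auto.D14, Bela.Siro.F against Tac.Mtx.F, KY1005.Siro.D14 against KY1005.F, KY1005.Siro.D14 against Siro.F, KY1005.Siro.F against KY1005.Siro.D28 and Siro.F against NoRx.F. They ran from 0 to 2 in Auto.D14, Bela.Siro.D14, Bela.Siro.F against Siro.F and KY1005.F against NoRx.F, from 1 to 2 in KY1005.Siro.D14 against NoRx.F, from 1 to 4 in Bela.Siro.F and KY1005.Siro.D28, from 2 to 3 in KY1005.Siro.D14 and from 2 to 4 in KY1005.Siro.F. They stayed at 1 in NoRx.F and Tac.Mtx.D14, and at 0 in Auto.D100, Bela.Siro.D30, KY1005.D14, Tac.Mtx.F, Tac.Mtx.F against Tac.Mtx.D14 and KY1005.Siro.D28 against KY1005.Siro.D14. Groups of 2 to 5 arrays limit what can be called, and FASLG is close to the background of the array. All 3 groups of KY1005 with sirolimus lie in the batch with 2 healthy arrays of high actin ratio.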
